A study of Mus musculus with 8 samples.

Results

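The set described here holds 36 mouse genes of the urea cycle and of amino acid breakdown, out of 45777 genes in the deposited table. Members were the rows whose identifier is the mouse NCBI gene of a listed symbol, and all 36 were found. They fall into 9 branches, which are the urea cycle (7 genes), glutamine and glutamate (3), histidine (3), methionine and transsulfuration (6), tyrosine (4), tryptophan (3), serine, glycine, alanine and aspartate (6), ornithine, proline and lysine (3), and indole methylation (1). No measured value entered the choice by rule, although the set was proposed with earlier results of these data in view.

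The study asked how extracellular vesicles (EVs) from bovine colostrum, small membrane-bound particles of the first milk, affect mice with non-alcoholic steatohepatitis (NASH), a fatty liver disease with inflammation. RNA was sequenced from liver and from colon in 4 groups per tissue: a NASH group, an EV low dose group and an EV high dose group of the NASH model, and a control group. Each group and tissue had 1 library, so every comparison below describes a pair of libraries, has no replicate check and carries no error or p-value. The labels give no dose amount, strain, sex, age, diet or duration, and do not say whether a library pooled several animals. That the EV groups had NASH was read from the design text of the series. How far animals of 1 group differ is therefore unknown, as is what part of a difference between groups comes from a single animal.

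Amino acids that are not used for protein lose their nitrogen as ammonia or by transfer to glutamate and aspartate, and the liver converts that nitrogen into urea. The carbon skeletons are burned or turned into glucose and ketone bodies. Hepatocytes around the portal vein carry most of the urea cycle and of glutaminase, while those around the central vein make glutamine. The methionine branch also supplies S-adenosylmethionine, the methyl donor of the cell, and many of these enzymes are made at high levels in few organs other than liver.

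Values are FPKM, fragments per kilobase of transcript, scaled to the fragments mapped in a library, so sequencing depth is unknown. Between 10469 and 12420 genes reached 1 FPKM in a liver library, and between 13863 and 14480 in a colon library. Genes below 1 FPKM in all 4 libraries of a tissue were set aside. The liver then held 12866 genes, with all 36 members among them, and the colon 15245 genes with 23 members. Ratios are log2 ratios of FPKM + 1, which understates the ratio of low genes. The median gene of the NASH liver stood 0.55 above the control liver as deposited, and against NASH liver it stood at -0.14 for the low and -0.13 for the high EV dose. For that reason each ratio is centred on the median gene of its own comparison, and a member counts as apart at 2-fold or more, a log2 ratio of 1. The 11 hepatocyte markers, secreted liver proteins such as albumin (Alb), summed to 39510 FPKM in NASH liver, 38418 in EV low dose, 38605 in EV high dose and 46170 in control liver. All protein-coding genes summed to 374843 FPKM in NASH liver, 377879 in EV low dose, 399572 in EV high dose and 437494 in control liver. Marker sums in FPKM are therefore not shares of a library, and a lower sum need not be a lower share. The 6 colon epithelium markers summed to between 2878 and 3530 FPKM in the colon libraries and to 3.73 FPKM or less in the liver libraries, so each tissue label stood with its own markers. In whole tissue, fewer cells of a type and less RNA per cell cannot be told apart.

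In the NASH liver the set took up less of the RNA than in the control liver, and none of its members was 2-fold higher. The 36 members held 1.89% of the protein-coding FPKM in NASH liver, 2.29% in EV low dose, 2.23% in EV high dose and 2.58% in control liver. Relative to the median gene, 20 of 36 members were 2-fold lower in NASH liver than in control liver, 0 were higher and 16 lay within 2-fold. Over all genes kept, 7.66% were 2-fold lower and 7.21% were 2-fold higher. All 36 members belong to the 4048 liver genes with a mean of 10 FPKM or more, and of those 13.4% were 2-fold lower and 8.47% higher. The median member stood at -1.09, against 0 for all genes kept by construction, and the members ran between -3.66 for Inmt and 0.00 for Mat1a.

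The number of lower members depends on what the ratio is set against. As deposited, 11 members were 2-fold lower in NASH, 31 had a ratio below 0 and 5 had one above, namely Mat1a, Glul, Glud1, Gpt and Tat. Of all 12866 genes kept, 416 were 2-fold lower and 2633 higher as deposited. Over all genes, higher genes made up 48.5% of those 2-fold apart relative to the median gene, 86.4% as deposited, 95.1% with each library scaled to the same sum and 98.2% relative to the hepatocyte markers. The hepatocyte markers had a median of -1.24 in NASH against control, with 6 of 11 at 2-fold lower. Set against those markers, the median of all 12866 genes kept was 1.24, with 159 genes 2-fold lower and 8724 higher. The members' median turned to 0.15 there, below that of all genes, with 5 members 2-fold lower and 4 higher. Those 5 were Hal, Gnmt, Haao, Agxt and Inmt, and they were 2-fold lower in each of the 10 settings tried, the reported one included. The settings are not separate checks, since all use the same libraries and several only move the centre. With no filter the members' ratios equal those as deposited. Another 9 members (Otc, Gls2, Uroc1, Amdhd1, Cbs, Cth, Hpd, Gldc and Oat) kept a ratio below 0 in all 10 settings. Markers of other cells moved with this comparison: the 8 macrophage markers summed to 761 FPKM in NASH liver against 122 in control liver with 8 of 8 at 2-fold higher, and the 7 stellate cell and fibroblast markers to 320 against 85.7 FPKM with 3 of 7 higher. Their part in the members' ratios was not tested.

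**Figure D1:**
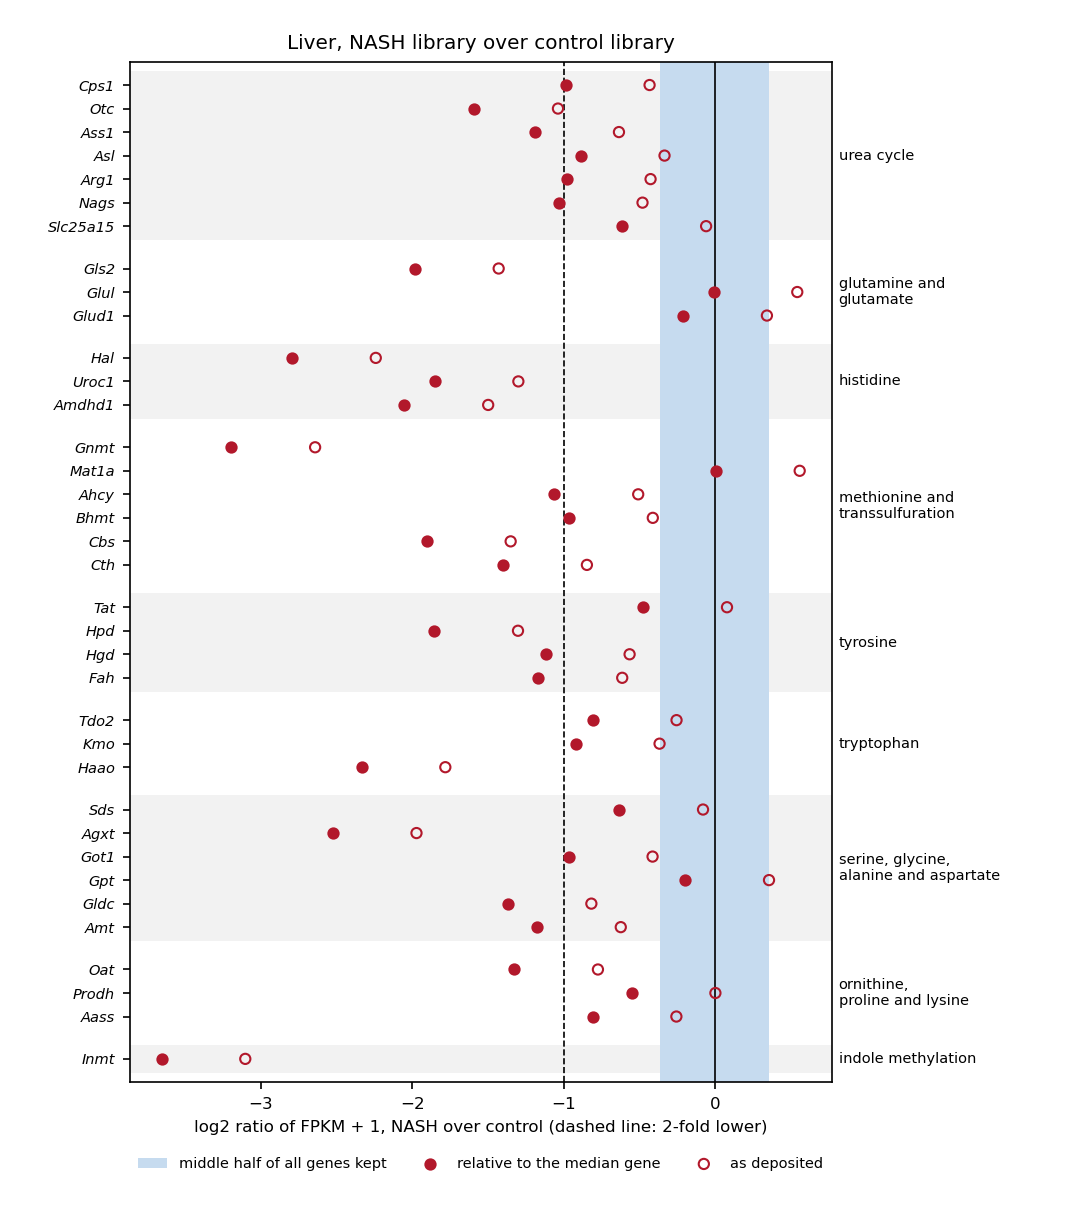
Log2 ratio of FPKM + 1 for each of the 36 members, NASH liver library over control liver library, by branch; filled points are relative to the median gene, open points as deposited, the blue band holds the middle of all genes kept, and the dashed line marks 2-fold lower. Filled points of 20 members lie at or left of the dashed line, Inmt (-3.66), Gnmt (-3.19) and Hal (-2.79) farthest (relative to hepatocyte markers 5 do), while the open points of Mat1a, Glul, Glud1, Gpt and Tat lie above 0.

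The members with the lowest ratios, Inmt, Gnmt and Hal, stood at ranks 43, 56 and 86 from the lowest of the 12866 liver genes. Their promoters are shown because these 3 members carry the largest differences of the set, each 300 bases long, from 250 before to 50 after the annotated start, from RefSeq on GRCm38.p6. Inmt lies on the minus strand with its window at chr6:55174941-55175240, Gnmt on the minus strand at chr17:46729116-46729415, and Hal on the plus strand at chr10:93488518-93488817. The annotated Gnmt gene extends to 46729211, so the start its window is set on lies inside the gene's outer bound. Capitals mark matches to the TATA box TATAAA or to the C/EBP motif TTGCNNAA on either strand.
Inmt: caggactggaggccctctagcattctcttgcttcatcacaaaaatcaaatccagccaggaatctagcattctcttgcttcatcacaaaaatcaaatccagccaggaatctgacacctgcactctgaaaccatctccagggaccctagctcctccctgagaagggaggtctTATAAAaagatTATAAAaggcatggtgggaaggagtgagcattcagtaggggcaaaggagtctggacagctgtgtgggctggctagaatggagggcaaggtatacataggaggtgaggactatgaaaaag
Gnmt: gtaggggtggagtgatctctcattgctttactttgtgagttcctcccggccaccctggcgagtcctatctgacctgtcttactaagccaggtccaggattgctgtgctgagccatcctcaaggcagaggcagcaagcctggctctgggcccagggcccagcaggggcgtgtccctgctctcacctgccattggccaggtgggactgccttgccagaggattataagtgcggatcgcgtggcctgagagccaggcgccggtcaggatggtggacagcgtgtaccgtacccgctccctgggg
Hal: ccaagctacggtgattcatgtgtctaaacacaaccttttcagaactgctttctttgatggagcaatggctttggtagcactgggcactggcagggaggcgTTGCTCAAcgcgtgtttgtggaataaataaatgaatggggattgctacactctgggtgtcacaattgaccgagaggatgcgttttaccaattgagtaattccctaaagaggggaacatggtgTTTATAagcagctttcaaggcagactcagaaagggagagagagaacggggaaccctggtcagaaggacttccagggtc
Inmt held TATAAA at bases 171 to 176 and again at 182 to 187 of its window, Hal held the C/EBP motif at bases 101 to 108 and TATAAA on the opposite strand at bases 223 to 228, and the Gnmt window held neither. RefSeq gave 29 promoters for 28 of the 36 members. TATAAA was found in 4 of the 29 (Hal, Hgd, Inmt and Tdo2) and in 13.6% of all 32851 mouse promoters of that length. TTGCNNAA was found in 3 (Aass, Hal and Hgd) and in 10.8% of all. The E-box CACGTG was found in 3 (Ass1, Cbs and Slc25a15) and in 7.15% of all, and it shares no letters with the other motifs in these windows. The HNF4 motif CAAAGTCCA and the cAMP response element TGACGTCA were found in 0 of the 29, and in 0.475% and 1.79% of all. Such matches describe letters in these windows and nothing more.

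In the urea cycle 3 of 7 genes were 2-fold lower in NASH liver, with a branch median of -0.99 that turned to 0.25 relative to the hepatocyte markers. Otc, the mitochondrial enzyme that makes citrulline, was the lowest of them at 85.5 FPKM in NASH, 125 in EV low dose, 142 in EV high dose and 177 in control liver, a ratio of -1.59 for NASH against control. Ass1, which joins citrulline with aspartate, was at 643 FPKM in NASH, 569 in EV low dose, 507 in EV high dose and 1001 in control liver (-1.19). Nags makes N-acetylglutamate, the activator that the first enzyme of the cycle needs. It was at 15.7 FPKM in NASH, 15.1 in EV low dose, 14.0 in EV high dose and 22.3 in control liver (-1.03), and both Ass1 and Nags turned above 0 relative to the hepatocyte markers. Cps1, that first and ammonia-fixing enzyme, was at 659.7 FPKM in NASH, 757 in EV low dose, 781 in EV high dose and 892 in control liver. Arg1, the arginase that releases urea, was at 484 FPKM in NASH, 711 in EV low dose, 679 in EV high dose and 652 in control liver. Cps1 and Arg1 lay just short of the 2-fold line, at -0.99 and -0.98. Asl, argininosuccinate lyase, was at 102 FPKM in NASH, 128 in EV low dose, 131 in EV high dose and 129 in control liver (-0.89). Slc25a15, the mitochondrial ornithine carrier, differed least at -0.61 with 67.0 FPKM in NASH, 62.0 in EV low dose, 63.5 in EV high dose and 69.95 in control liver. Relative to NASH, Otc and Arg1 were 1.5-fold higher at both EV doses (0.68 and 0.69 at the low dose, 0.86 and 0.62 at the high dose). Ass1 and Nags did not share that direction: Ass1 stood at -0.04 at the low and -0.21 at the high dose, and Nags at 0.08 and -0.02, with a sign that changed between settings for Nags at both doses and for Ass1 at the low dose. As deposited, Arg1 in both EV livers lay above NASH and control, while Ass1 lay below both. Relative to the median gene, Arg1 stood above NASH by less (0.69 and 0.62) than NASH stood below control (-0.98).

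Of the 3 glutamine and glutamate genes, 1 was 2-fold lower in NASH, and the branch median was -0.21, or 0.34 as deposited. Gls2, which releases ammonia, and Glul, which fixes it, differed. Gls2, the liver glutaminase and the lower gene, was at 32.6 FPKM in NASH, 40.6 in EV low dose, 43.4 in EV high dose and 89.5 in control liver, a ratio of -1.98. The annotated gene overlaps Spryd4, which was at 13.0 FPKM in NASH and 14.3 in control liver. Glul, glutamine synthetase, was at 277 FPKM in NASH, 226 in EV low dose, 279.6 in EV high dose and 190.3 in control liver, a ratio of -0.01 relative to the median gene and 0.54 as deposited. The ratio of Gls2 to Glul within a library, which does not depend on scaling, was 0.117 in NASH, 0.180 in EV low dose, 0.155 in EV high dose and 0.470 in control liver. Glud1, glutamate dehydrogenase, stood at -0.21 in NASH against control and at 0.34 as deposited. It was below NASH at both EV doses in all 10 settings (-0.15 at the low and -0.27 at the high dose), and Glul was so at the low dose (-0.15).

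The histidine branch was lower as a whole, with 3 of 3 genes 2-fold lower in NASH and a median of -2.05 that stayed below 0 in all 10 settings, at -0.81 relative to the hepatocyte markers. Hal, which removes ammonia from histidine, was at 24.1 FPKM in NASH, 42.1 in EV low dose, 45.2 in EV high dose and 117 in control liver (-2.79). Uroc1, the next enzyme of the pathway, was at 26.6 FPKM in NASH, 36.5 in EV low dose, 32.1 in EV high dose and 67.0 in control liver (-1.85). Amdhd1, the enzyme after that, was at 29.5 FPKM in NASH, 35.7 in EV low dose, 32.9 in EV high dose and 85.2 in control liver (-2.05). Each of the 3 was lowest in NASH and highest in control, with both EV libraries between. Hal was 0.92 above NASH at the low dose and 1.02 at the high dose, where it was past 2-fold in 3 of 10 settings. In the same comparisons Uroc1 stood at 0.58 and 0.39 and Amdhd1 at 0.40 and 0.29.

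The methionine branch split between its first enzyme, which was not lower in NASH, and the enzymes after it. Mat1a makes S-adenosylmethionine and was at 602 FPKM in NASH, 758 in EV low dose, 788 in EV high dose and 409 in control liver, a ratio of 0.00 relative to the median gene and 0.56 as deposited. Gnmt, which uses S-adenosylmethionine to methylate glycine and so disposes of its excess, was at 169 FPKM in NASH, 224 in EV low dose, 263 in EV high dose and 1062 in control liver, a ratio of -3.19. The Gnmt gene (gene ID 14711, chromosome 17, 46725664 to 46729211 on GRCm38.p6) had the highest FPKM of the 36 in control liver. The ratio of Gnmt to Mat1a was 0.281 in NASH, 0.295 in EV low dose, 0.333 in EV high dose and 2.60 in control liver. Cbs, which starts transsulfuration from homocysteine, was at 53.3 FPKM in NASH, 41.5 in EV low dose, 45.8 in EV high dose and 137 in control liver (-1.90). Cth, which completes cysteine synthesis, was at 95.3 FPKM in NASH, 129 in EV low dose, 142 in EV high dose and 172 in control liver (-1.40). Ahcy, which clears S-adenosylhomocysteine, stood at -1.06 and Bhmt, which remakes methionine from homocysteine with betaine, at -0.97. The branch counted 4 of 6 lower with a median of -1.23, and 0.01 relative to the hepatocyte markers, where Ahcy turned to 0.18. Bhmt was the gene of this branch farthest above NASH at the low dose, at 701 FPKM in NASH, 1147 in EV low dose, 993 in EV high dose and 933 in control liver (0.85 and 0.64 over NASH). Cbs went the other way, below NASH at both doses in all 10 settings (-0.21 and -0.08), and the ratio of Cbs to Bhmt was 0.0760 in NASH, 0.0362 in EV low dose, 0.0461 in EV high dose and 0.147 in control liver.

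In tyrosine breakdown the 3 members that act after the first enzyme were 2-fold lower in NASH relative to the median gene. Of these, 1 stayed below 0 relative to the hepatocyte markers. Tat, the transaminase that starts the pathway, was at 302 FPKM in NASH, 293 in EV low dose, 223 in EV high dose and 286 in control liver, a ratio of -0.48 relative to the median gene and 0.08 as deposited. Hpd, the next enzyme, was at 417 FPKM in NASH, 525 in EV low dose, 624 in EV high dose and 1031 in control liver (-1.86). Hgd, which opens the ring of homogentisate, was at 185 FPKM in NASH, 214 in EV low dose, 257 in EV high dose and 275 in control liver (-1.12). Fah, the last enzyme, was at 153 FPKM in NASH, 174 in EV low dose, 172 in EV high dose and 234 in control liver (-1.17). That made 3 of 4 lower with a median of -1.14, and 0.10 relative to the hepatocyte markers, where Hgd turned to 0.12 and Fah to 0.07 while Hpd stayed below 0. At the EV high dose Hpd (0.71) and Hgd (0.60) were 1.5-fold above NASH and Tat was below NASH (-0.30).

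In tryptophan breakdown the difference lay mainly in the last of the 3 genes. Tdo2, the enzyme that opens the tryptophan ring, was at 582 FPKM in NASH, 765 in EV low dose, 824 in EV high dose and 695 in control liver (-0.81). Kmo, kynurenine monooxygenase, was at 65.6 FPKM in NASH, 85.6 in EV low dose, 89.9 in EV high dose and 85.0 in control liver (-0.92). As deposited, both EV livers thus held as much Tdo2 and Kmo as the control liver or more. In 2 of the 10 settings the ratio of NASH over control was itself above 0 for both genes. Relative to the median gene, both EV livers stood above NASH in these genes by less than NASH stood below control. Those ratios over NASH were 0.53 at the low and 0.64 at the high dose for Tdo2, and 0.52 and 0.58 for Kmo. Haao, which acts later on the way to NAD and is also known as 3-hydroxyanthranilate dioxygenase, was at 52.4 FPKM in NASH, 62.7 in EV low dose, 73.9 in EV high dose and 183 in control liver (-2.34). The branch median was -0.92, which turned to 0.32 relative to the hepatocyte markers and 0.01 with each library scaled to the same sum, while Haao stayed 2-fold lower. At the high dose Tdo2 (0.64) and Haao (0.62) were 1.5-fold above NASH, with Kmo at 0.58 just short of the line.

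Among the genes of serine, glycine, alanine and aspartate, Agxt had the lowest ratio. This transaminase, which turns glyoxylate into glycine with nitrogen from alanine, was at 56.9 FPKM in NASH, 63.2 in EV low dose, 68.3 in EV high dose and 226 in control liver (-2.53), and its EV values stayed close to NASH (0.29 and 0.39). Gldc and Amt, subunits of the glycine cleavage system, were low in level and lower in NASH. Gldc was at 19.7 FPKM in NASH, 16.0 in EV low dose, 12.5 in EV high dose and 35.4 in control liver (-1.37), and was below NASH at both doses in all 10 settings (-0.15 and -0.48). Amt was at 13.4 FPKM in NASH, 13.6 in EV low dose, 11.9 in EV high dose and 21.2 in control liver (-1.18, and 0.06 relative to the hepatocyte markers). Gpt, an alanine transaminase, was at 144 FPKM in NASH, 158 in EV low dose, 139.9 in EV high dose and 112 in control liver, a ratio of -0.20 relative to the median gene and 0.35 as deposited. Got1, the cytosolic aspartate transaminase, stood at -0.97 and Sds, serine dehydratase, at -0.63. Sds was at 82.3 FPKM in NASH, 97.1 in EV low dose, 114 in EV high dose and 87.1 in control liver, and its annotated gene overlaps Plbd2, which was at 15.3 FPKM in NASH and 7.16 in control liver. The branch counted 3 of 6 lower with a median of -1.07, and 0.17 relative to the hepatocyte markers.

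The 3 genes of ornithine, proline and lysine were lower in NASH relative to the median gene and all lay above NASH at the EV high dose. Oat, which turns ornithine toward glutamate and proline, was at 103 FPKM in NASH, 99.0 in EV low dose, 179 in EV high dose and 176 in control liver (-1.33 in NASH against control). It was the member with the widest gap between the doses, at 0.84 for the high over the low dose, and the only one of 36 that was 1.5-fold apart there. Over all genes 1.06% were 1.5-fold higher and 1% lower in that comparison, and 0.303% were 2-fold higher and 0.163% lower, against 0 members at 2-fold in either direction. Prodh, proline dehydrogenase, was at 45.8 FPKM in NASH, 68.6 in EV low dose, 67.9 in EV high dose and 45.8 in control liver (-0.55). Aass, which starts lysine breakdown, was at 54.9 FPKM in NASH, 75.8 in EV low dose, 86.6 in EV high dose and 65.9 in control liver (-0.81). Against NASH, 3 of 3 were 1.5-fold higher at the high dose (0.93 for Oat, 0.69 for Prodh, 0.78 for Aass), and Prodh (0.71) and Aass (0.59) were so at the low dose. The branch median for NASH against control, -0.81, turned to 0.43 relative to the hepatocyte markers and 0.12 with each library scaled to the same sum.

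Inmt, indolethylamine N-methyltransferase, which methylates amines such as tryptamine with S-adenosylmethionine, differed most in every liver comparison with NASH. It was at 89.2 FPKM in NASH, 237 in EV low dose, 304 in EV high dose and 773 in control liver (gene ID 21743, chromosome 6, 55170627 to 55174990 on GRCm38.p6). As deposited, the NASH library held 0.116 of the control level, and the EV low dose and EV high dose libraries held 2.64 and 3.39 times the NASH level. Relative to the median gene that was -3.66 for NASH against control, 1.54 for EV low dose against NASH and 1.89 for EV high dose against NASH, each past 2-fold in all 10 settings. Its rank from the lowest was 12852 of 12866 genes at the low dose and 12840 at the high dose.

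**Figure D2:**
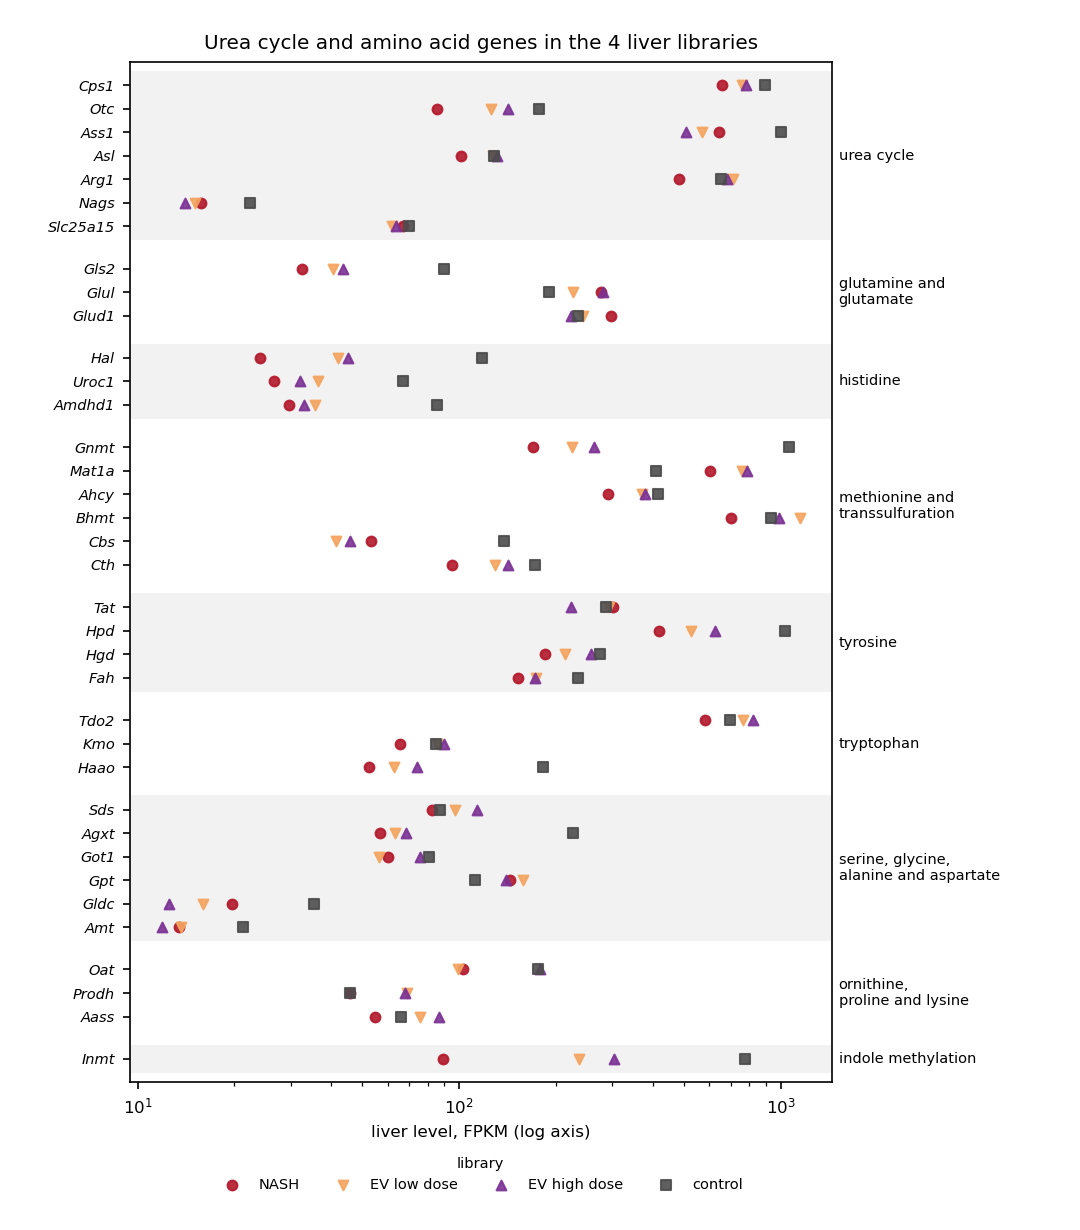
FPKM of the 36 members in the 4 liver libraries (log axis), grouped by branch, 1 point per library. For Inmt, Gnmt, Hal, Haao and Agxt the 3 libraries of the NASH model all lie well left of control, while for Mat1a the control library is the lowest at 409 FPKM.

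Against NASH, the EV livers lay above for most of the set by less than 2-fold. At the EV low dose 1 of 36 members was 2-fold higher (Inmt) and 0 were lower, where 0.443% of all genes were 2-fold higher and 0.225% lower, and the members' median was 0.40. At the EV high dose 2 of 36 were 2-fold higher (Inmt and Hal) and 0 were lower, where 0.816% of all genes were higher and 0.373% lower, and the median was 0.52. At 1.5-fold, 7 members were higher and 0 lower at the low dose (Otc, Arg1, Hal, Bhmt, Prodh, Aass and Inmt), against 2.29% of all genes higher and 1.62% lower, and 3.68% higher among genes with a mean of 10 FPKM or more. At the high dose 15 were 1.5-fold higher and 0 lower, which adds Gnmt, Cth, Hpd, Hgd, Tdo2, Haao, Sds and Oat, against 4% of all genes higher and 4.07% lower, and 7.34% higher among genes with a mean of 10 FPKM or more. As deposited the counts were 3 higher and 0 lower at the low dose, and 6 higher and 1 lower at the high dose. In that setting 1.26% of all genes were 1.5-fold higher at the low dose and 2.13% at the high dose. The share 1.5-fold lower was not counted as deposited, but at 2-fold 93 of 12866 genes were lower and 71 higher at the high dose. The hepatocyte markers themselves had medians of 0.21 at the low and 0.29 at the high dose. Relative to them the members' medians were 0.19 and 0.23, against -0.21 and -0.29 for all genes kept. In that setting 3 members were 1.5-fold higher and 0 lower at the low dose, where 0.871% of all genes were higher. At the high dose 3 members were higher and 2 lower, where 1.21% of all genes were higher. The share of all genes 1.5-fold lower was not counted there, but at 2-fold 241 of 12866 genes were lower and 52 higher. Of the 7 neutrophil and lymphocyte markers 3 were kept. At both doses 2 of 3 were 2-fold lower than NASH (medians -1.47 and -1.39), while the other lay above (0.14 and 0.40). The 7 summed to 76.3 FPKM in NASH, 32.9 in EV low dose, 37.4 in EV high dose and 6.73 in control liver. The macrophage markers had medians of -0.03 and 0.05, with 0 of 8 at 2-fold in either direction. The stellate cell and fibroblast markers had medians of -0.21 and -0.31, with 0 of 7 at 2-fold lower at the low dose and 1 at the high dose. The part of these markers in the members' ratios was not tested. Among all genes, higher ones made up 66.3% of those 2-fold apart at the low dose and 68.6% at the high dose, but 44.9% and 43.3% as deposited and 38.6% and 17.7% relative to the hepatocyte markers. In all 10 settings 24 members stayed above NASH at the low dose and 26 at the high dose. Glud1, Cbs and Gldc stayed below NASH in all 10 settings at both doses, joined by Glul at the low dose and by Ass1 and Tat at the high dose. Both comparisons use the same NASH library, and NASH over control uses it too on the other side, so 1 unusual NASH library would enter all 3. Between the doses the members' median was 0.06, and -0.03 relative to the hepatocyte markers.

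**Figure D3:**
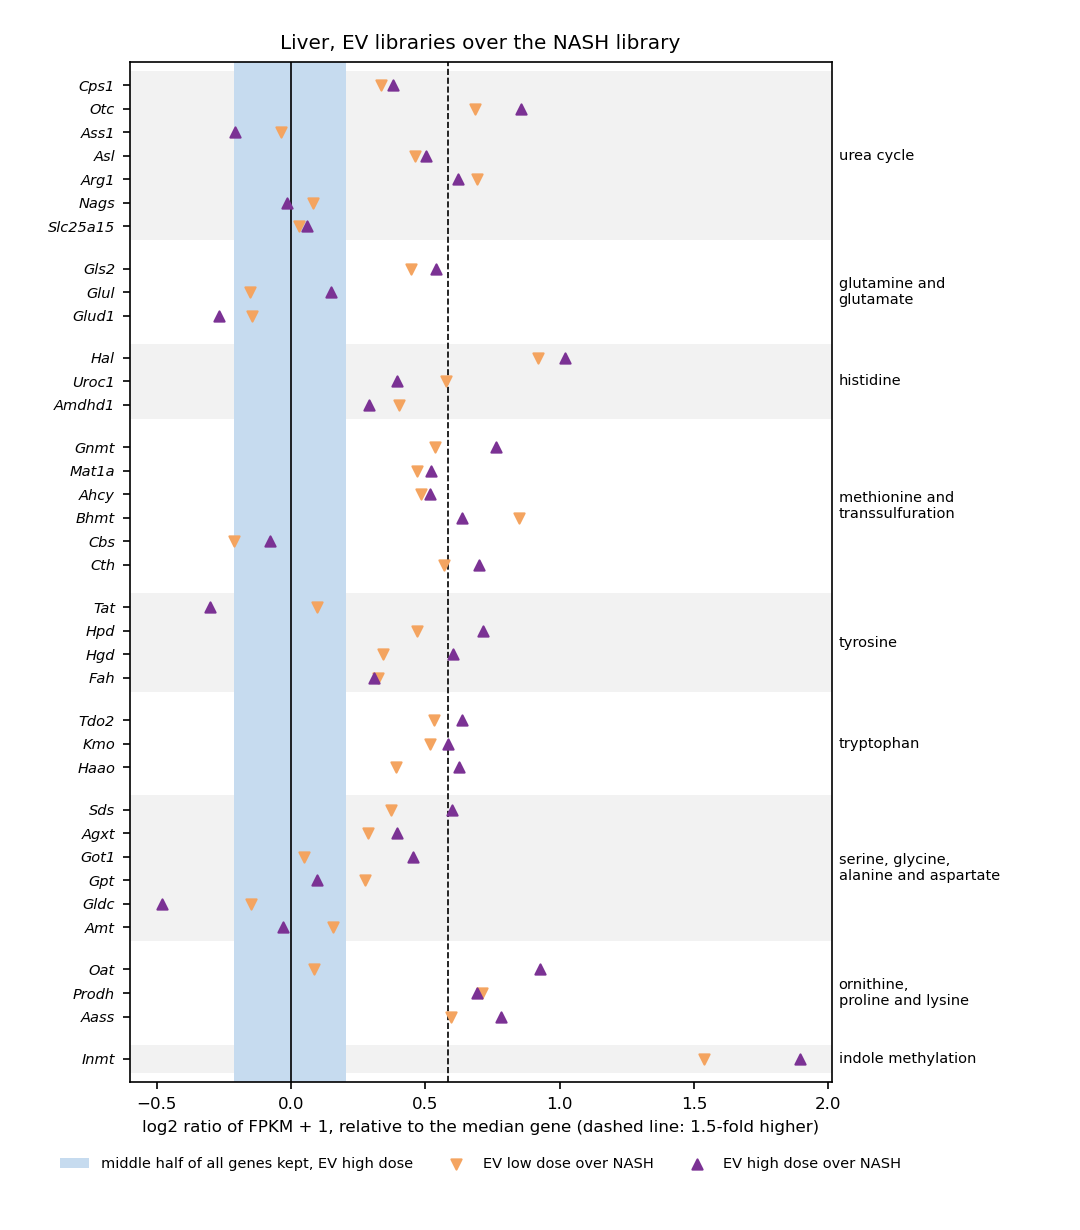
Log2 ratio of FPKM + 1 relative to the median gene for each member, EV low dose over NASH (downward triangles) and EV high dose over NASH (upward triangles), both against the same NASH liver library; the dashed line marks 1.5-fold higher and the blue band holds the middle of all genes kept at the high dose. Inmt lies farthest right (1.54 and 1.89), 7 members reach the dashed line at the low dose and 15 at the high dose, and Ass1, Glud1, Cbs and Gldc lie below 0 at both doses (at the low dose Ass1 turned above 0 in 1 setting); as deposited, 3 and 6 members reach it.

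Ratios between genes of the same library, chosen after their values were seen, show these splits without any scaling. Mat2a, the S-adenosylmethionine synthetase of most other tissues and of dividing cells, was at 66.5 FPKM in NASH, 57.2 in EV low dose, 52.3 in EV high dose and 13.7 in control liver, and its ratio to Mat1a was 0.110 in NASH, 0.0755 in EV low dose, 0.0664 in EV high dose and 0.0335 in control liver. Gpt2, the mitochondrial alanine transaminase, was at 148 FPKM in NASH, 124 in EV low dose, 103 in EV high dose and 36.2 in control liver. Its ratio to Gpt was 1.03 in NASH, 0.784 in EV low dose, 0.736 in EV high dose and 0.322 in control liver. The ratio of Hal to Sds was 0.292 in NASH, 0.434 in EV low dose, 0.397 in EV high dose and 1.35 in control liver. In 5 of these 6 ratios both EV libraries lay between NASH and control, and in the ratio of Cbs to Bhmt they lay below both.

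**Figure D4:**
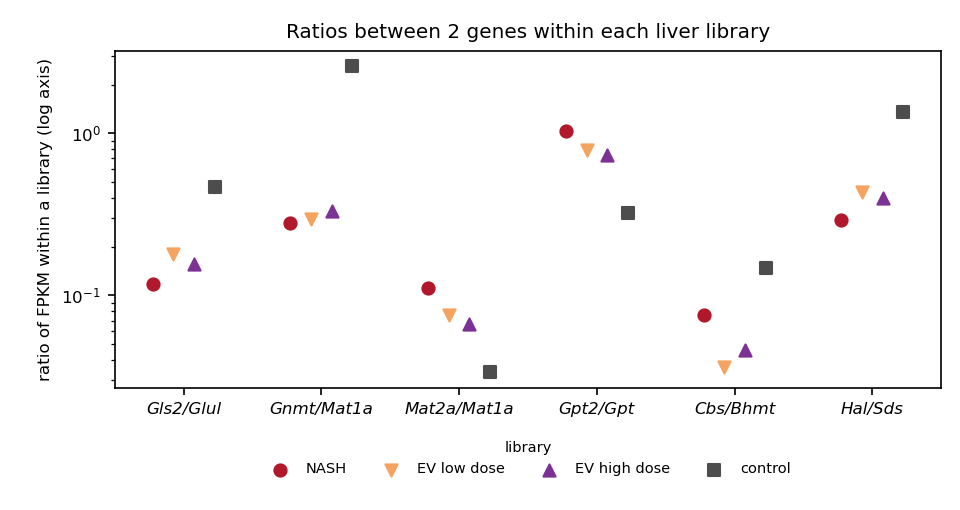
FPKM of 1 gene over that of another within each liver library (log axis), which does not change with scaling. The control library holds the end value in each pair, highest for Gls2/Glul, Gnmt/Mat1a, Cbs/Bhmt and Hal/Sds and lowest for Mat2a/Mat1a and Gpt2/Gpt.

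Other genes of the same pathways were taken from lists written with earlier results of these data known, so their counts are not independent support. In NASH liver against control, 9 of 12 further enzymes of aromatic amino acids were 2-fold lower and 0 higher, with a median of -1.35, where 7.66% of all genes were lower and 7.21% higher. Among them Afmid, kynurenine formamidase, was at 10.1 FPKM in NASH against 35.9 in control liver (-2.28) and Kynu, kynureninase, at 19.5 against 53.7 FPKM (-1.97). Of 17 genes of methyl groups, choline and sulfur, 7 were lower and 1 higher (median -0.95), with Ethe1, a sulfide-oxidising enzyme of mitochondria, at 26.0 FPKM in NASH against 61.1 in control liver (-1.75) and Mat2a as the higher one (1.64). Of 18 further enzymes of glycine, glyoxylate, proline and lysine, 5 were lower and 1 higher (median -0.54). Hao1, which makes the glyoxylate that Agxt uses, was at 39.9 FPKM in NASH against 96.9 in control liver (-1.81), and Gpt2 was the higher one (1.45). Branched-chain breakdown, which the liver shares with muscle, had 5 of 21 lower and 0 higher (median -0.66), and the 12 carriers had 0 lower and 1 higher (median -0.10, or 0.45 as deposited), which was Slc7a8, at 5.33 FPKM in NASH against 0.484 in control liver. Of 12 regulators 1 was lower and 0 higher (median -0.38), a share near that of all genes. It was Sirt3, a mitochondrial deacetylase, at 28.9 FPKM in NASH against 44.6 in control liver (-1.16). As deposited, 4 of the 12 aromatic enzymes, 2 of the 17 of methyl groups, choline and sulfur, 2 of the 18 of glycine to lysine and 0 of the 21 of branched chains were 2-fold lower. The regulators had 0 lower and 1 higher as deposited, with a median of 0.17, and the median of the glycine to lysine list was 0.01. Relative to the hepatocyte markers the medians were -0.11 for the aromatic list, 0.29 for methyl groups, choline and sulfur, 0.70 for glycine to lysine, 0.58 for branched chains, 1.14 for carriers and 0.86 for regulators. Among these lists only the aromatic one stayed below 0 there.

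Of the 6 listed genes of amino acid synthesis 5 were kept. In NASH 3 of 5 were 2-fold higher and 0 lower, where 7.21% of all genes were higher and 7.66% lower. Their median was 1.31, and 2.55 relative to the hepatocyte markers. Asns, asparagine synthetase, was at 19.1 FPKM in NASH, 11.0 in EV low dose, 9.44 in EV high dose and 2.37 in control liver. Psat1, of serine synthesis, was at 7.94 FPKM in NASH, 5.06 in EV low dose, 3.67 in EV high dose and 0.296 in control liver. The median of the 5 was -0.42 at the EV low dose and -0.80 at the EV high dose against NASH, with 3 of 5 at 1.5-fold lower at the high dose. Over all genes 4.07% were 1.5-fold lower and 4% higher at that dose. Relative to the median gene, the periportal markers had 3 of 9 lower and 0 higher in NASH (median 0.42), and the pericentral markers 3 of 10 lower and 0 higher (median -0.41). The same shares of all genes, 7.66% lower and 7.21% higher, apply to these counts. As deposited, 2 periportal markers were lower and 4 higher (median 0.98), and 1 pericentral marker was lower and 0 higher (median 0.14). Of all 12866 genes, 416 were lower and 2633 higher as deposited. Relative to the hepatocyte markers the medians were 1.66 for periportal and 0.82 for pericentral markers. Within the periportal list, G6pc, the glucose-releasing phosphatase, was at 36.7 FPKM in NASH against 258 in control liver (-3.33), while Hsd17b13, a lipid droplet protein, was at 413 against 153 FPKM (0.87).

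In the colon most members were scarce. All 36 were lower in control colon than in control liver, 13 stayed under 1 FPKM in all 4 colon libraries, and the set held between 0.147% and 0.161% of the protein-coding FPKM. The members with the most colon RNA were Glul, at 128 FPKM in NASH, 165 in EV low dose, 177 in EV high dose and 148 in control colon, and Oat, at 107 FPKM in NASH, 119.6 in EV low dose, 92.3 in EV high dose and 97.3 in control colon. The histidine genes and Agxt reached 0.144 FPKM at most. Of the 23 members kept, 2 were 2-fold higher in NASH colon than in control colon and 0 were lower, where 2.12% of all genes kept were higher and 2.26% lower, with a members' median of -0.13, or 0.03 with each library scaled to the same sum. The higher ones were Inmt (2.38) and Prodh, at 8.59 FPKM in NASH, 6.48 in EV low dose, 6.20 in EV high dose and 3.58 in control colon (1.0). The hepatocyte markers lay the same way, summing to 79.5 FPKM in NASH colon against 48.1 in control colon, with 3 of the 5 kept at 2-fold higher and a median of 1.35. Their part in these ratios was not tested. Tat followed at 0.98, with 10.2 FPKM in NASH, 9.59 in EV low dose, 8.41 in EV high dose and 4.44 in control colon. At the EV low dose 0 of 23 members were 2-fold apart from NASH in either direction, where 1.06% of all genes were higher and 1.61% lower. At the EV high dose 1 was lower (Inmt) and 0 were higher, where 1.08% were higher and 1.48% lower.

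Inmt was thus far lower in NASH liver and higher in NASH colon. It was at 18.4 FPKM in NASH, 12.5 in EV low dose, 7.52 in EV high dose and 2.57 in control colon, in the reverse order of the 4 liver libraries. Against NASH the colon ratios were -0.46 at the low dose and -1.20 at the high dose. Albumin RNA was at 4.60 FPKM in NASH, 2.90 in EV low dose, 5.18 in EV high dose and 0.782 in control colon. The ratio of Inmt to Alb was 3.99 in NASH, 4.32 in EV low dose, 1.45 in EV high dose and 3.28 in control colon, while in the liver libraries it was 0.0397 or less. The 7 stellate cell and fibroblast markers summed to 365 FPKM in NASH colon, 358 in EV low dose, 425 in EV high dose and 445 in control colon, but 4 of the 7 lay above 0 for NASH over control, with a median of 0.25.

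**Figure D5:**
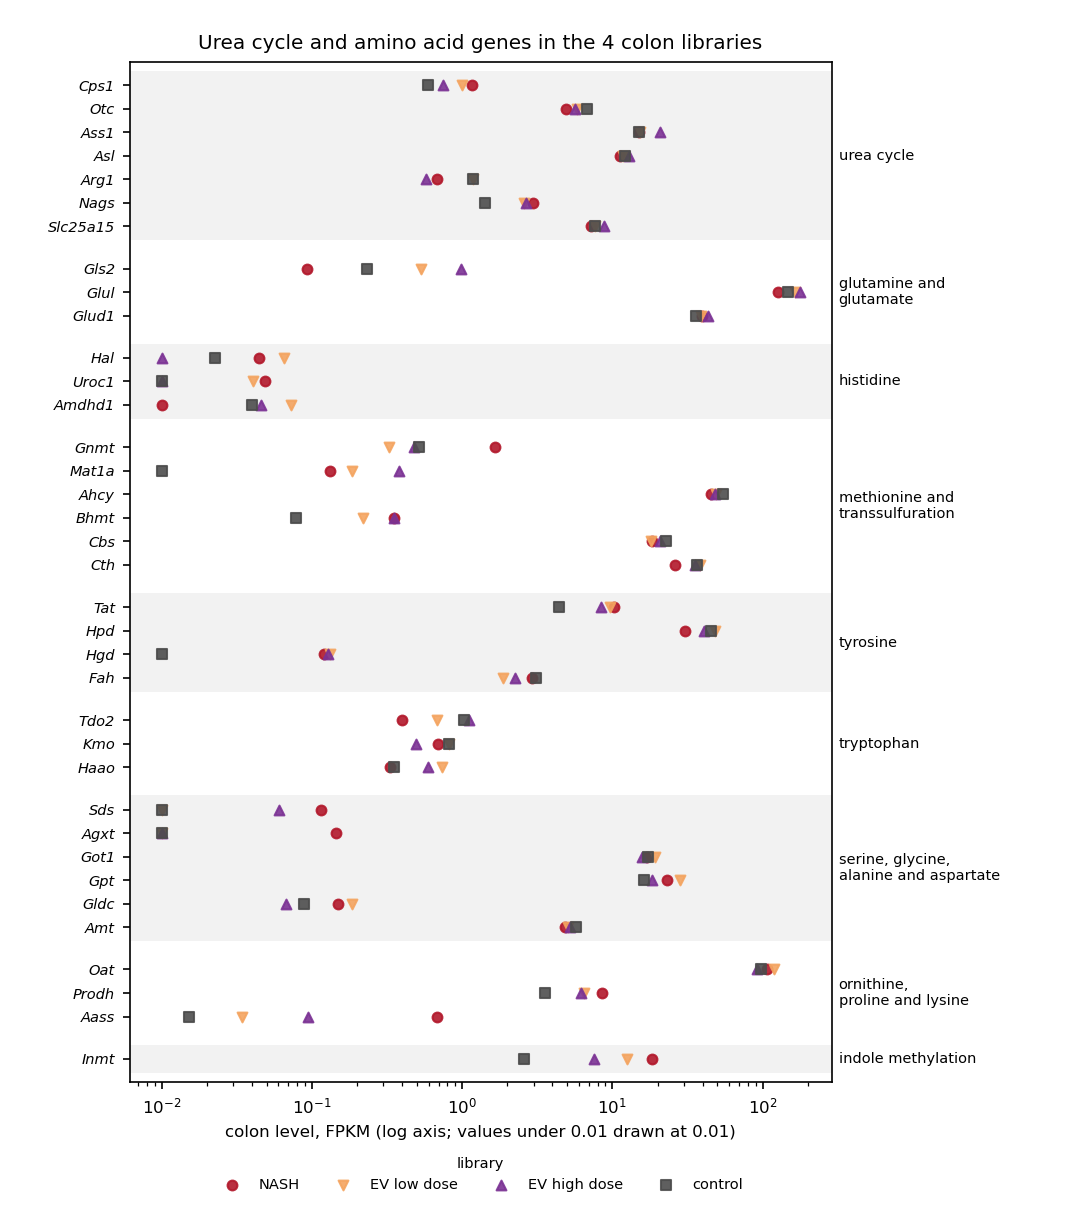
FPKM of the 36 members in the 4 colon libraries (log axis, values under 0.01 drawn at 0.01), grouped by branch. Glul, Oat, Ahcy, Glud1, Hpd and Cth lie at 25.99 FPKM or more in every library, the histidine genes lie near 0, and Inmt is highest in NASH (18.4 FPKM) and lowest in control (2.57 FPKM).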

How the data were processed

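RNA of mouse liver and colon was measured in 8 libraries, 1 per group and tissue. The authors deposited FPKM for 45777 NCBI gene identifiers in a single table. Per the labels' protocols, TRIzol and the RNeasy Plus kit were used for RNA and TruSeq Stranded Total RNA Gold for libraries. Tools named in the submitters' processing notes are StringTie, HISAT2 and Trimmomatic 0.38, with the build mm10. Neither their order nor the read depth is given in the sources used here. A total RNA kit also reads non-coding and unspliced RNA, so FPKM of coding genes depend on how much of those a library holds. Groups were taken from the sample titles.

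Identifiers were matched to RefSeq genes of GRCm38.p6 (45679 matched, 98 not). Ratios were taken on log2(FPKM + 1) after keeping genes at 1 FPKM or more in at least 1 library of the tissue, and centred on the median kept gene of each comparison. With 1 library per group no test was run, and members were counted at 2-fold and, for EV comparisons, at 1.5-fold. Any member could be named. Of the other lists, up to 4 genes per comparison were eligible, those with the largest ratios among genes at 5 FPKM or more in the higher library. Members, lists, thresholds and motifs were chosen with earlier results of these data known. Alternatives were pseudocounts of 0.1 and 5 FPKM, values as deposited, median-of-ratios and same-sum scaling, ratios relative to the hepatocyte markers, no filter, a filter at 5 FPKM, and a 1.5-fold threshold. Ratios relative to the median gene among those with a mean of 10 FPKM or more were added after the data were seen. Promoters are the RefSeq windows of GRCm38.p6, searched on both strands. Code was tested on simulated data and run in Python 3.11.15 with numpy 2.4.6, pandas 2.3.3 and matplotlib 3.10.9.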

Additional observations from a re-analysis of the deposited data

Results flagged for a closer look

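Inmt stood on opposite sides in the 2 tissues under the same contrast. Its log2 ratio for NASH over control was -3.66 in liver (89.2 FPKM in NASH, 773 in control) and 2.38 in colon (18.4 FPKM in NASH, 2.57 in control). With 1 library per group this difference between tissues was not tested. No group had enough libraries for a check of single libraries that stand apart.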

How the results depend on the processing

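The count of 20 members 2-fold lower in NASH liver than in control liver became 11 as deposited or with no filter, 7 with same-sum scaling and 5 relative to hepatocyte markers, where 4 became 2-fold higher. It was within 1.5 times the count under the other alternatives. Of all 12866 liver genes kept, 985 were 2-fold lower in the reported setting and 416 as deposited. With same-sum scaling 252 were lower, and relative to hepatocyte markers 159 were lower and 8724 higher. Relative to the hepatocyte markers Ass1 turned to 0.049, Nags to 0.20, Ahcy to 0.18, Hgd to 0.12, Fah to 0.071 and Amt to 0.061, and the medians of the methionine, tyrosine and serine branches turned to 0.0070, 0.095 and 0.17. These shifts follow from the different centre, which moves all genes of a comparison alike. For EV high dose over NASH in liver, the 2 members 2-fold higher became 1 with a pseudocount of 5 FPKM, as deposited, with same-sum scaling, relative to hepatocyte markers, with no filter, with a filter at 5 FPKM and relative to genes with a mean of 10 FPKM or more, in each case because Hal fell short. At 1.5-fold the liver counts of higher members were 7 for EV low dose over NASH, 15 for EV high dose over NASH and 1 for EV high dose over EV low dose. In colon, with a pseudocount of 0.1 FPKM, members lower and higher numbered 1 and 4 for NASH over control, 1 and 0 for EV low dose over NASH and 2 and 1 for EV high dose over NASH. Over all 15245 colon genes kept, those counts were 596 and 742, 664 and 347, and 464 and 292. With a pseudocount of 5 FPKM, 1 was higher for NASH over control and 0 lower for EV high dose over NASH, against 113 and 76 of all genes. At 1.5-fold the colon counts lower and higher were 2 and 5 for NASH over control, 1 and 2 for EV low dose over NASH, and 2 lower for EV high dose over NASH. The share of all colon genes at 1.5-fold was not counted, so these counts cannot be set against it. Same-sum scaling gave 1 lower for EV low dose over NASH in colon, against 429 of all genes. No paired analysis was possible because each group had 1 library, and for the same reason no replicate could be left out. Depth is unknown, so values under 1 FPKM, most of them in colon, cannot be given an interval.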

Other observations

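In colon, Gnmt, the glycine methyltransferase, was at 1.65 FPKM in NASH, 0.329 in EV low dose, 0.476 in EV high dose and 0.520 in control, and Aass was at 0.687 FPKM in NASH against 0.0152 in control, levels at which FPKM are uncertain.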
